A study of Rattus norvegicus with 6 samples.

Results

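The 9 genes described here are antioxidant genes of the glutathione and thioredoxin systems together with the pair of proteins that set their transcription: Srxn1, Txnrd1, Prdx1, Slc7a11, Gclc, Gclm, Nqo1, Nfe2l2 and Keap1. They were found by gene symbol among the 17048 rows of each count table, where every one of the 9 has a single row, and all 9 passed the filter on low counts that left 7729 rows for testing. The 9 genes were chosen by earlier results of the same libraries, so their values against the High film are given as a description and without a test of each gene. RNA was measured in rat neural stem/progenitor cells (NSPCs) that had been grown for 24 h on carbon films that combine nanotubes with nanoribbons of graphene oxide. The films differ in electrical conductivity and are called High, Medium and Low, with 2 libraries on each. The paper set conductivity by the time of oxidation, and longer oxidation added oxygen groups, so conductivity is not all that differs between them. High is the film whose conductivity lies above that of neural tissue, and Medium and Low lie in the range of the tissue. All 6 libraries came from wild-type (WT) cells in a medium that maintains stemness, on films coated with poly-D-lysine and laminin, so no group is free of the film, the coating or the medium. In its cell assays the paper used less concentrated poly-D-lysine on Medium than on High and Low, to even out the laminin bound. The cells were primary cells of the embryonic rat telencephalon, and nothing in the labels ties a library to an animal or a culture, so p-values measure only the spread between these libraries, which may be technical.

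NRF2, the product of Nfe2l2, is the transcription factor that raises antioxidant genes, and it binds short promoter sequences called antioxidant response elements together with small MAF proteins. Keap1 is the adaptor of a ubiquitin ligase that keeps NRF2 low until its reactive cysteines are modified by oxidants or electrophiles. The targets restore thiols: Slc7a11 imports cystine, Gclc and Gclm form the enzyme that makes the first step of glutathione synthesis, Prdx1 reduces peroxides, Srxn1 repairs peroxiredoxins that were over-oxidized, Txnrd1 keeps thioredoxin reduced with NADPH, and Nqo1 reduces quinones with NAD(P)H. Neural stem cells are known to be sensitive to their redox state, and oxidants affect both their division and their differentiation.

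The promoters of the 9 genes were searched for the antioxidant response element, because it is the sequence that NRF2 binds. RefSeq promoters of the rat genome build GRCr8 were used, each with 250 bases before and 50 after an annotated start. GRCr8 is not the build of the count tables, and these windows were matched by symbol only: all 9 genes matched, in 10 windows, since Txnrd1 has 2 annotated starts. The core TGACNNNGC was searched on both strands, as was a looser form, TGAGNNNGC. Among all 33469 rat promoter windows, 4038 (12.1%) held the core and 5754 (17.2%) held the looser form. The core stood in the windows of 4 of the 9 genes, Gclm, Prdx1, Txnrd1 and Nfe2l2, and the looser form in the window of Srxn1. The sites are shown because they are the letters that NRF2 could read in these genes, with the match in capitals and up to 10 bases on either side, 5′ to 3′ on the strand of the gene.
Gclm: tgcggtttctGCTTAGTCAttgtcttcca
Prdx1: cagggaaagcGCTGAGTCAtaccccgccg
Txnrd1: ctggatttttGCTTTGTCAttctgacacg
Nfe2l2: gactagccatTGACGCCGCctc
The Gclm site (chr2:213031953-213031981) begins 172 bases before the start, the Prdx1 site (chr5:135383761-135383789) 135 bases before it and the Txnrd1 site (chr7:22755964-22755992) 78 bases before 1 of its 2 starts, all 3 as the reverse complement of the core. In Nfe2l2 (chr3:81028950-81028971) the match lies on the strand of the gene and inside the transcript, from base 39 to base 47.

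Srxn1, the gene with the largest fitted difference between films among the 9, had no match to the core and 3 matches to the looser form. They begin 118, 17 and 5 bases before the start, the last of them running over it. The stretch that holds all 3 is printed with the matches in capitals (chr3:161064684-161064825, plus strand, GRCr8).
Srxn1: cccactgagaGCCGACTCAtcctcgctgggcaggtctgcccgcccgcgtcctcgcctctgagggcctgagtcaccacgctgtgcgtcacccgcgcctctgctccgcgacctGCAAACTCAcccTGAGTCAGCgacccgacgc
No match to either form was found in the windows of Slc7a11, Gclc, Nqo1 and Keap1, which says only that these letters are not within the 300 bases searched. The windows of the 9 genes had a median GC content of 59.2%, against 51.7% over all windows. A match is a description of the letters and shows no binding.

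**Figure D1:**
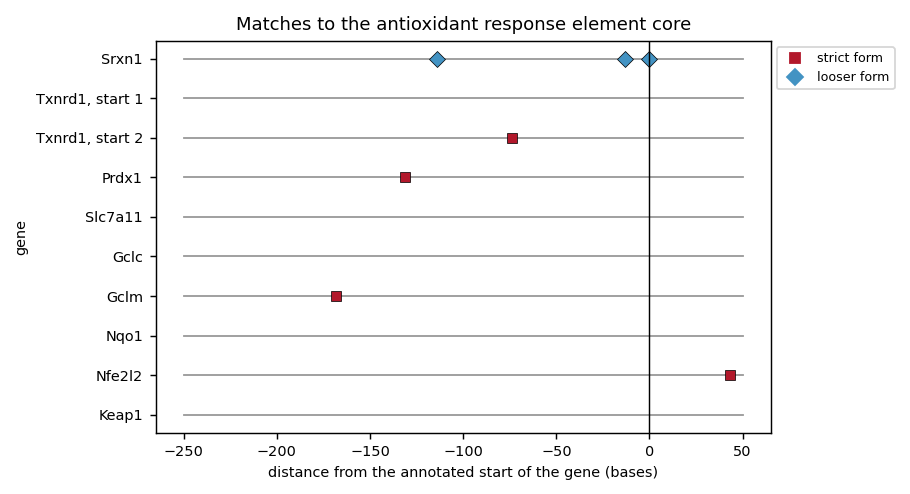
Position of each match to the core (squares) and to the looser form (diamonds) of the antioxidant response element in the 10 promoter windows of the 9 genes, in bases from the annotated start (vertical line at 0). Srxn1 holds 3 matches to the looser form, and Gclm, Prdx1, 1 start of Txnrd1 and Nfe2l2 hold 1 match each to the core.

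Levels are given as CPM, the count of a gene scaled to a common library size by the trimmed mean of M-values (TMM), per library, and a level is compared only with the same gene in another library. In the thioredoxin arm, Srxn1 separated the films most widely. It stood at 264 and 343 CPM in the High libraries, 7.55 and 29.9 CPM in Medium and 29.4 and 35.4 CPM in Low. The lower High library was thus far above all 4 of the others, and the means were 304 ± 55.8 (High), 18.7 ± 15.8 (Medium) and 32.4 ± 4.25 CPM (Low; SD, n = 2 each). High lay 11.9-fold over the mean of the 4 Medium and Low libraries, and the fitted log2 fold change of their mean against High was -3.62 (SE 0.69). Raw counts behind these levels were 1282 and 1438 in High against 44 to 211 in the rest.

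Txnrd1, the selenoprotein that reduces thioredoxin, was at 807 and 652 CPM in High, 189 and 210 CPM in Medium and 343 and 273 CPM in Low. Here too both High libraries lay above all others, and the order was High, Low, Medium without overlap of any 2 films. The means were 730 ± 109, 200 ± 14.4 and 308 ± 49.7 CPM in High, Medium and Low (SD, n = 2 each). High was 2.88-fold over the other 4 libraries, with a log2 fold change of -1.56 (SE 0.28), the smallest standard error among the 9 genes. Between Low and Medium the log2 difference of 0.63 (SE 0.33) did not pass (edgeR's quasi-likelihood test, Benjamini-Hochberg adjusted p = 1).

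Prdx1, the peroxide-reducing enzyme that Srxn1 repairs, did not separate the films. Its levels were 212 and 193 CPM in High, 33.3 and 198 CPM in Medium and 205 and 194 CPM in Low. Of the 6 libraries, 5 lay within 193 and 212 CPM and Medium replicate 1 stood alone below them. The log2 fold change of -0.42 (SE 0.64) was -0.03 without that library.

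In the glutathione arm, Slc7a11, the cystine carrier, was at 327 and 481 CPM in High, at 25.9 and 87.8 CPM in Medium and at 137 and 11.3 CPM in Low. Both High libraries were above all 4 others, while the Low libraries differed 12.2-fold from each other and spanned both Medium libraries. High was 6.17-fold over the rest, with a log2 fold change of -2.64 (SE 0.81). Leaving out Low replicate 1 gave -4.00 and leaving out Low replicate 2 gave -2.19.

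The subunits of glutamate-cysteine ligase overlapped between films. Gclc, the catalytic subunit, ran from 84.3 to 186 CPM over all 6 libraries, at 186 and 115 CPM in High, 127 and 101 CPM in Medium and 84.3 and 131 CPM in Low. Its coefficient of variation over the 6 libraries was 28.03%, the smallest of the 9 genes, and its log2 fold change was -0.44 (SE 0.59). Gclm, the modifier subunit, was at 256 and 248 CPM in High, 425 and 123 CPM in Medium and 43.9 and 192 CPM in Low. The High libraries of Gclm differed by only 1.03-fold, and 1 Medium library lay above them. Its log2 fold change was -0.49 (SE 0.64), with -1.10 (SE 0.76) for Low and 0.12 (SE 0.75) for Medium taken alone.

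Nqo1, the quinone reductase, was at 88.2 and 119 CPM in High, 92.5 and 34.3 CPM in Medium and 4.06 and 69.5 CPM in Low. Medium replicate 1 fell between the High libraries, so the films overlapped. The log2 fold change of -1.10 had a standard error of 1.18 and moved to -2.68 without Low replicate 2. The Low libraries held 28 and 414 raw counts, a 17.1-fold difference in CPM between libraries of 1 film.

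Nfe2l2, which encodes NRF2 itself, was at 305 and 211 CPM in High, 8.41 and 101 CPM in Medium and 70.8 and 30.4 CPM in Low. Both High libraries exceeded the 4 others, at 4.91-fold over their mean, with a log2 fold change of -2.30 (SE 0.86). The Medium libraries differed 11.99-fold, and the fold change went to -3.66 without the higher of them. Keap1, the repressor, was at 3.09 and 39.6 CPM in High, 49.1 and 102 CPM in Medium and 61.4 and 3.02 CPM in Low. It was the only gene of the 9 with a positive fitted value (1.21, SE 1.82), and that value took a negative sign (-0.49) without Low replicate 1 and went to 3.99 without High replicate 2. With 15 and 18 raw counts in its lowest libraries and folds of 12.8 and 20.3 between replicates in High and Low, no direction can be read for Keap1.

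**Figure D2:**
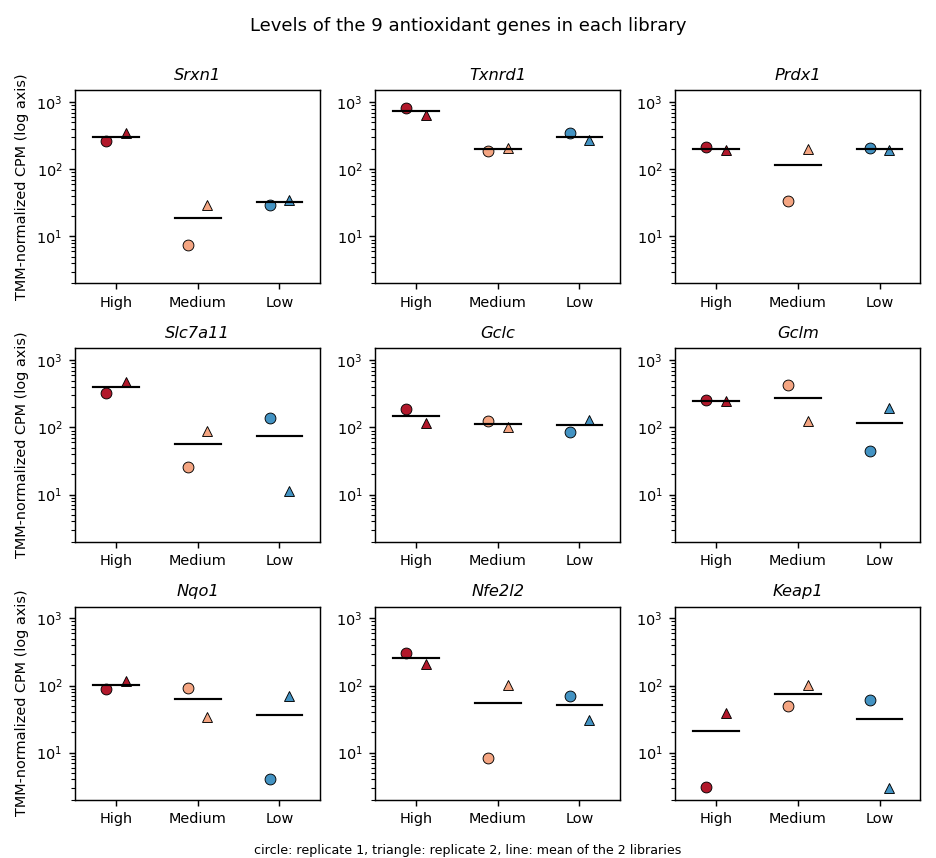
TMM-normalized CPM (log axis) of the 9 genes in each of the 6 libraries, by film, with circles for replicate 1, triangles for replicate 2 and a line at the mean of the 2 libraries. For Srxn1, Txnrd1, Slc7a11 and Nfe2l2 both High libraries lie above the 4 others, and Keap1 spans 3.02 to 61.4 CPM within Low.

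Set side by side, 4 of the 9 genes had both High libraries above all 4 Medium and Low libraries and none had both below them. Over all 7729 rows tested, 10.1% had both High libraries above and 8.06% both below; since the choice of the genes used this contrast, nothing is read from the difference. The 4 genes were Srxn1, Txnrd1, Slc7a11 and Nfe2l2, which come from the thioredoxin genes, the glutathione genes and the regulators, while the remaining 5 (Prdx1, Gclc, Gclm, Nqo1 and Keap1) overlapped. The count was also 4 with 2 other scalings, without the ribosomal RNA rows and without Medium replicate 2, Low replicate 1 or Low replicate 2. It was 5 without High replicate 1 and 6 without High replicate 2 or Medium replicate 1. The median log2 fold change of Low and Medium combined against High was -1.10 over the 9 genes and -0.12 over all rows tested, with 8 genes lower and 1 higher. Counts of calls in the contrasts against High are likewise a description, since the genes were chosen by those contrasts, and nothing is read from them. By the edgeR test, 0 of the 9 passed an adjusted p of 0.05 in this contrast, where 0.129% of all rows did. At an unadjusted p under 0.05 the count was 4 of 9, beside 5.5% of all rows. DESeq2 called 2 of the 9 and 4.5% of all rows, and limma-voom called 1 of the 9 and 0.298% of all rows, both adjusted.

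Each film alone was compared with the same High libraries, so the comparisons are not independent of each other. For Low against High the log2 fold changes were -3.23 (SE 0.88) for Srxn1, -1.25 (SE 0.34) for Txnrd1, -2.44 (SE 1.02) for Slc7a11 and -2.35 (SE 1.08) for Nfe2l2. For Medium against High, the values of the same genes were -4.02 (SE 0.91), -1.87 (SE 0.34), -2.83 (SE 1.04) and -2.24 (SE 1.08). The edgeR test passed 0 of the 9 genes in either comparison, where 0.0518% and 0.0129% of all rows passed. An unadjusted p under 0.05 was reached by 3 of the 9 in each, beside 4.27% of all rows for Low and 4.04% for Medium. DESeq2 called 2 in each, beside 3.61% and 3.92% of all rows, and limma-voom called 0, beside 0.207% and 0.181%.

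**Figure D3:**
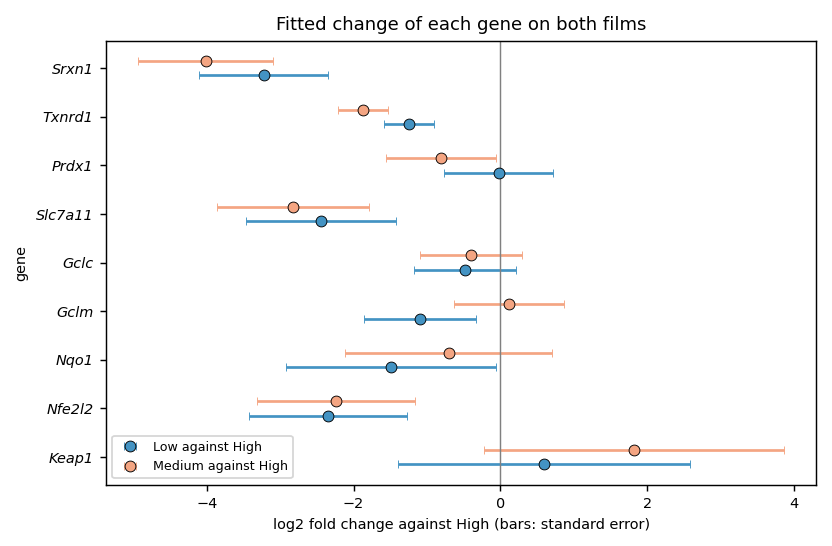
Fitted log2 fold change of each gene for Low against High and for Medium against High (points), with bars of 1 standard error. Srxn1, Txnrd1, Slc7a11 and Nfe2l2 lie left of 0 on both films, from -4.02 to -1.25, and the bars of Prdx1, Gclc, Gclm, Nqo1 and Keap1 include 0 on at least 1 film.

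Low against Medium is the comparison that leaves the High libraries out of the contrast. None of the 9 genes passed (0 of 9, edgeR adjusted p = 1 for each, 0 at an unadjusted p under 0.05, 0 with DESeq2 and 0 with limma-voom), where 0% of all rows passed by edgeR, 1.51% at the unadjusted p, 1.38% with DESeq2 and 0% with limma-voom. All 3 thioredoxin genes had positive values, of 0.79 (SE 0.82) for Srxn1, 0.63 (SE 0.33) for Txnrd1 and 0.79 (SE 0.75) for Prdx1. Without Medium replicate 1 these values were 0.12 for Srxn1, 0.55 for Txnrd1 and 0.01 for Prdx1. The fitted differences of the others ran from -1.23 (SE 2.01) for Keap1 and -1.22 (SE 0.76) for Gclm to 0.38 (SE 0.97) for Slc7a11. With standard errors of 0.33 to 2.01 on the log2 scale, a difference between these films of the size seen could not be told from the spread between libraries.

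The films also differed in how well their replicates matched. The median fold between the 2 libraries of a film over the 9 genes was 1.34 in High, 3.30 in Medium and 2.29 in Low, beside 2.01, 2.84 and 2.04 over all rows tested and 1.67, 1.92 and 1.67 over the 3234 rows in the range of mean levels of the 9 genes. These medians are of folds of CPM + 1. Next to rows of like level, the median of the 9 genes was thus smaller in High and larger in Medium and Low, a difference that was not tested. The 9 genes were chosen by contrasts against High, which depend on the spread between the High libraries, so nothing is read from it. In plain CPM, Prdx1 differed 5.94-fold in Medium, Srxn1 3.95-fold and Txnrd1 1.11-fold. Txnrd1 was the gene of the 9 with the closest replicates in Medium, and it stayed within 1.26-fold on every film. Gclm and Nqo1 moved alike over the 6 libraries (Pearson r = 0.95 of log2 levels), as did Srxn1 and Txnrd1 (r = 0.94), whereas Gclc and Keap1 ran opposite (r = -0.79). These are descriptions over 6 libraries that share depth and film.

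**Figure D4:**
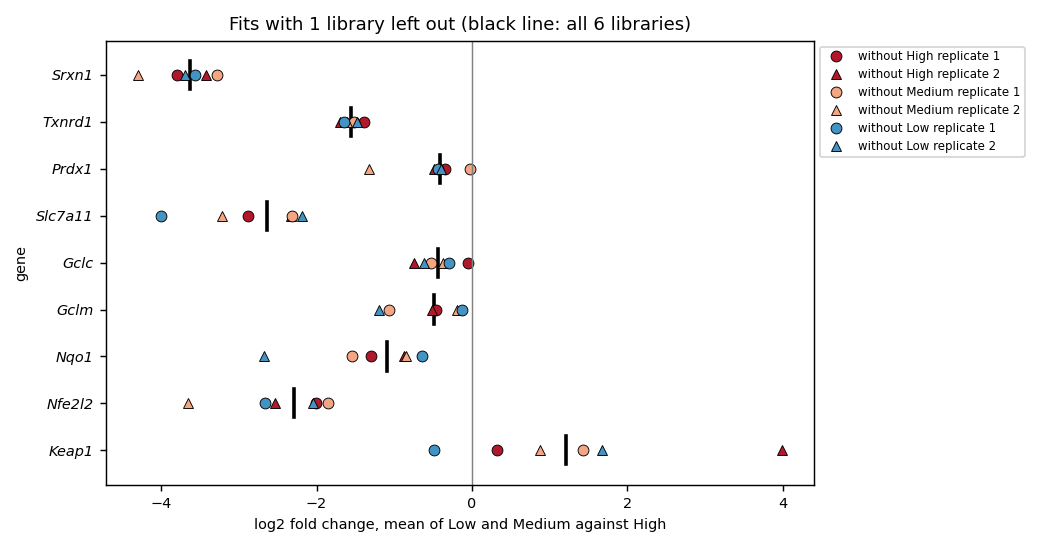
Log2 fold change of Low and Medium combined against High for each gene, refitted with 1 of the 6 libraries left out (coloured points) and with all 6 (black line). Srxn1 stays between -4.29 and -3.28 and Txnrd1 between -1.70 and -1.39, while Keap1 runs from -0.49 to 3.99.

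The rows most like 3 of the 9 genes over the 6 libraries were found among 4315 rows with a mean log2 CPM of at least 5, by Pearson's r of log2(CPM + 1). Txnrd1 was followed most closely by Actn4 (r = 0.976), Hprt1 (r = 0.975) and Ftl1 (r = 0.971). For Slc7a11 they were Ggnbp2 (r = 0.984), Rps29 (r = 0.980) and Serinc1 (r = 0.972). Gclm was matched by Zfp161 (r = 0.998), Fgd1 (r = 0.978) and Zmat3 (r = 0.977). With 6 libraries and 4315 rows to choose from, values of this size are a description and nothing more.

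The rest of the pathway was read from 6 lists of 103 genes, of which 85 were tested. These lists, too, were chosen with earlier results of these data known. Their p-values and counts against High are therefore a description, and nothing is read from them. Of these 85, 53 had lower fitted values on Low and Medium than on High and 32 had higher values. Hmox1, heme oxygenase and a classical NRF2 target, was the only one to pass the edgeR test (adjusted p = 0.00168), and it fell by 2.36 on the log2 scale (SE 0.19). Hmox1 stood at 5056 and 4711 CPM in High, 919 and 878 CPM in Medium and 842 and 1173 CPM in Low, so that the films did not overlap between High and the rest. At an unadjusted p under 0.05, 3 genes were higher and 7 lower. Both High libraries lay above the other 4 for 16 genes (18.8%) and below them for 9 (10.6%), beside the 10.1% and 8.06% of all rows.

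Among the other NRF2 targets, 12 of 16 tested had lower and 4 higher values, with a median log2 fold change of -0.80. Sqstm1, the autophagy receptor that also binds Keap1, was at 1962 and 1946 CPM in High and from 658 to 1129 CPM elsewhere (-1.22, SE 0.21, edgeR adjusted p = 0.0805). Fth1, the ferritin heavy chain, hardly differed (2934 and 3014 CPM in High, 2558 to 3889 CPM elsewhere, log2 fold change 0.05, SE 0.17). Its partner Ftl1, the ferritin light chain, named after its values were seen, was at 530 and 570 CPM in High and 254 to 322 CPM elsewhere (-0.99, SE 0.28). The ferritin subunits thus had different values, though neither passed the edgeR test.

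The list of other glutathione genes had a median of -0.66, with 18 of 26 lower and 8 higher, and none passed. Slc3a2, the heavy chain that carries Slc7a11 to the membrane, was at 1156 and 576 CPM in High and from 150 to 245 CPM elsewhere (-2.13, SE 0.36, edgeR adjusted p = 0.0781). Both chains of the cystine carrier therefore had both High libraries above the rest. Gstp1, a glutathione transferase, had the opposite sign (0.76, SE 0.33), from 377 and 587 CPM in High to 627 to 1229 CPM elsewhere. Glrx3, a glutaredoxin, was at -0.29 (SE 0.34).

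Other thioredoxin and peroxiredoxin genes had a median of -0.72, with 10 of 15 lower and 5 higher and none past the test. Txn1, thioredoxin itself and the substrate of Txnrd1, had 2805 and 2290 CPM in High and 2930 to 4126 CPM elsewhere, a log2 fold change of 0.39 (SE 0.19) whose sign is opposite to that of its reductase. Txnl1 was at -0.72 (SE 0.41). Prdx2, a cytosolic peroxiredoxin, was at 130 to 224 CPM in 5 libraries and at 2.40 CPM in Medium replicate 1, the library in which Prdx1 was also lowest. Sesn2, a stress-induced sestrin named after its values were seen, was at 189 and 423 CPM in High, 111 and 63.6 CPM in Medium and 0 and 10.2 CPM in Low.

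NADPH supply, which feeds Txnrd1 and glutathione reductase, was the list with a median on the other side (0.39), with 11 of 16 genes higher and 5 lower and none past the test. Its abundant members Tkt and Taldo1, of the pentose phosphate pathway, were at 0.32 (SE 0.28) and 0.08 (SE 0.40), and Pgd was at 0.86 (SE 0.59). Among the partners and controls of NRF2 the median was -0.22, with 6 of 9 lower. Mafg, the small MAF partner of NRF2, was at 215 and 277 CPM in High and 43.6 to 156 CPM elsewhere (-1.19, SE 0.58), whereas the ligase parts Cul3 and Rbx1 were at -0.22 (SE 0.46) and 0.56 (SE 0.32). The superoxide and catalase enzymes had a median of -0.16 over 3 genes, with Sod1 at -0.16 (SE 0.31), Sod2 at 0.57 (SE 0.58) and Cat at -0.36 (SE 2.42).

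**Figure D5:**
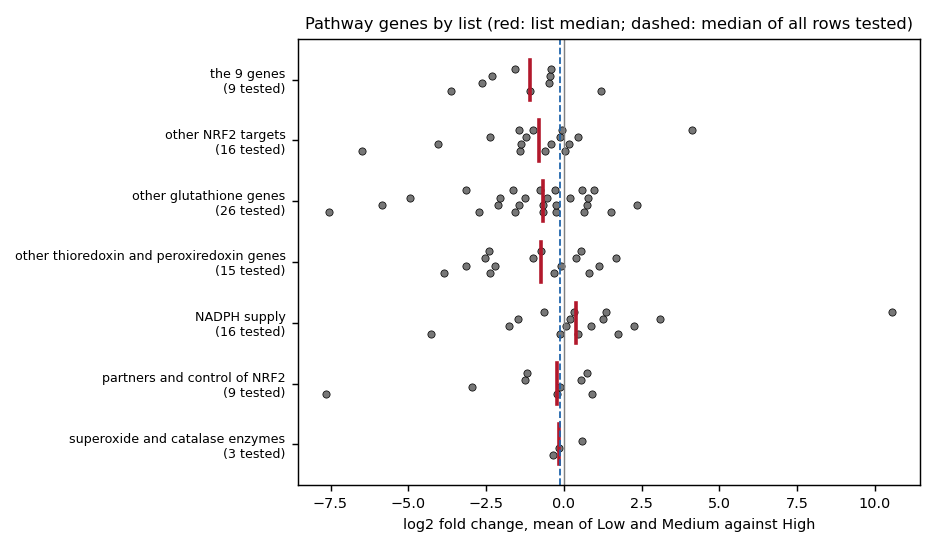
Log2 fold change of Low and Medium combined against High for each tested gene, by list, with red bars at the list medians and a dashed line at the median of all rows tested (-0.12). The medians of the lists lie between -1.10 for the 9 genes and -0.16, except NADPH supply at 0.39.

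Several features of the libraries moved with the High film. Total counts were 5124863 to 6213676 per library, and 4 ribosomal RNA rows took 25.9% and 38.3% of them in High against 6.90% to 12.8% elsewhere. Apart from this, Medium replicate 1 had the fewest rows with a count, 5355 against 6689 to 7809 in the other libraries. The 9 genes together took 0.217% and 0.186% of all counts in High and 0.102% to 0.109% elsewhere, and without the ribosomal RNA rows 0.293% and 0.301% against 0.111% to 0.117%. With those rows removed the 4 genes named above still had both High libraries above the rest. TMM scaling had already been applied, so this removal changed little (Srxn1 -3.63, beside -3.62 with the rows kept). It cannot address a difference in RNA quality or input between films, which was not tested. Neural stem cell markers (8 of 9 with counts, Hes5 at 0) summed to 3313 and 3599 CPM in High and 4769 to 6504 CPM elsewhere. Vim alone gave 1980 and 2146 CPM of the High sums. For 5 of the markers both High libraries lay below all others, beside 8.06% of all rows. Of the 8 tested, 6 had higher fitted values on Low and Medium and 2 had lower values, Fabp7 (-0.60, SE 0.55) and Hes1 (-0.82, SE 1.31). Of the markers of other cells, microglia had 5 of 7 at 0 and a sum of at most 7.10 CPM, Rbfox3 of mature neurons and Sox10 of the oligodendrocyte lineage were at 0, and Gjb6, Aqp4 and Aldh1l1 of astrocytes were at 0. Neuron markers summed to 31.0 and 69.4 CPM in High and 27.1 to 202 CPM elsewhere, astrocyte markers to 14.4 and 72.8 against 7.53 to 68.3 CPM, and oligodendrocyte lineage markers to 178 and 236 against 326 to 475 CPM. Meningeal and vascular markers, with 5 of 8 at 0, summed to 338 CPM in Medium replicate 2 and at most 35.8 CPM in the others. Col1a1 alone gave 329 CPM of the sum in Medium replicate 2. The part of the ribosomal RNA share and of the marker levels in the difference between films was not tested. In bulk RNA, fewer cells with a transcript and less of it per cell cannot be told apart.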

How the data were processed

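QuantSeq 3′ mRNA libraries (reads from the transcript end) were made (2 per film, 6 in all) and aligned by the authors with Bowtie2, and alignments, unique and multiple, were counted with Bedtools. The deposited values are raw counts, 1 table per library with 17048 rows. Per the submitters' processing notes the build was rn6, and the annotation and tool versions are not given in the sources used here. RNA isolation is described differently in the labels and in the methods. Multiple alignments leave near-identical genes uncertain, and PCR duplicates were not described as removed. No columns of other samples were present (0).

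Counts were filtered with filterByExpr, scaled by TMM and tested with edgeR 4.0.16's quasi-likelihood test (R 4.3.3, limma 3.58.1, DESeq2 1.42.0), all 6 libraries in 1 fit, Benjamini-Hochberg over 7729 rows, threshold 0.05; the procedure was tested on simulated data. The main contrast was Low and Medium, averaged, against High. Exact permutation tests on the ranks of 1 gene, counting both directions, cannot go below p = 0.133 (4 against 2) or 0.333 (2 against 2). Total counts were 5124863 to 6213676. How much of the spread between libraries comes from counting error, sampling of few molecules or PCR duplicates was not tested.

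The 9 genes and all lists were chosen with earlier results of these data known. Named in the text are the 9 genes. Of each pathway list, genes past the threshold in any contrast and the 3 with the highest mean level are named. Ftl1 and Sesn2 meet neither rule and were added after their values were seen. Likeness was taken for the 3 of the 9 with the highest mean level. Alternatives were DESeq2, limma-voom, RLE factors, library sizes alone, other filters, removal of ribosomal RNA rows, a replicate block, fits on the libraries of 2 films, and each library left out.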

Additional observations from a re-analysis of the deposited data

How the results depend on the processing

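With 2 libraries per film the number of rows called depended on the settings, and the cause was not tested. For Low and Medium combined against High, 10 rows were called, and 348 with DESeq2, 23 with limma-voom, 68 without a filter and 56 with a mean count of at least 10. Low against High gave 4, and 279, 16, 34 and 30 under these settings, 0 with library sizes alone, 2 without ribosomal RNA rows and 0 with the libraries of both films alone. Medium against High gave 1, and 303, 14, 48 and 40, and 0 with library sizes alone and with those films alone. Low against Medium gave 0, with 117 at an unadjusted p under 0.05, 107 called with DESeq2, 0 with limma-voom and 5 without a filter. The replicate numbers did not pair the libraries (correlations of deviations from the film means of 0.003 to 0.007); with the replicate block the calls were 57, 30, 39 and 0. Leaving out 1 library gave 34 to 242, 19 to 65, 11 to 275 and 0 to 194 rows, the highest without Medium replicate 2 except for Low against High (Low replicate 2), and Low against Medium gave 29 without Low replicate 2. Of the 9 genes, 0 were called, and 2 with DESeq2, 1 with limma-voom and 3 with no filter, with a mean count of at least 10 and with the block; leaving out 1 library gave 1 to 4, with 4 (Srxn1, Txnrd1, Slc7a11, Nfe2l2) without Medium replicate 2. This count, a description of genes chosen by the same contrast, and that of the genes with High above all others (4, and 5 or 6 without 1 of High replicate 1, High replicate 2 or Medium replicate 1) were added after seeing the data. Of the other pathway genes 1 was called, and 6 with DESeq2, 3 with limma-voom, 4 without a filter, with a mean count of at least 10 and with the block, and 3 to 9 with 1 library left out (9 without Medium replicate 2). Library sizes alone moved the median log2 fold change of all rows from -0.12 to 0.26 and that of Txnrd1 to -1.17. The sign of the fold change against High was kept in 14 of 14 settings for each of the 9 genes but Keap1 (13 of 14). Some of these values were close to no change: -0.03 for Prdx1 without Medium replicate 1, -0.05 for Gclc without High replicate 1 and -0.08 for Gclm with library sizes alone. The settings share the libraries that chose the genes. Without Medium replicate 2, the Medium film rests on replicate 1 alone, the library with the fewest rows with a count (5355). What that library adds to the calls in such a fit was not tested.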
